A study of Arabidopsis thaliana with 24 samples.

Results

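The comparison described here sets jaz4-1 rosettes against Col-0 rosettes harvested at ZT18, the middle of the dark period, and follows every gene that was measured. It used the 6 libraries that the labels place at ZT18 (3 of jaz4-1 and 3 of Col-0) out of 24 in the study. jaz4-1 (SALK_141628C) is a mutant in which JAZ4 is knocked out, and Col-0 is the Columbia wild type from which it derives. Plants of both lines grew on soil at 22 °C with 12 h of light per day and were 3 weeks old. Each library was made from 6 pooled rosettes cut at the hypocotyl, and the 3 libraries of a line are labelled as biological replicates. The other 18 libraries are of the same lines at ZT0 (dawn), ZT6 and ZT12 (dusk). They entered the fit to share its estimate of spread, and they served to ask whether a difference was particular to ZT18. A single mutant line was studied, so a change at JAZ4 and any other change carried by that line cannot be told apart. RNA came from whole rosettes, in which fewer cells of a type and less RNA per cell cannot be told apart.

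JAZ proteins repress the transcription factors of the jasmonate pathway and are destroyed when the hormone binds its receptor COI1. Jasmonate signalling is known to oppose that of salicylate, the hormone of defence against biotrophic pathogens, which is sensed by the NPR proteins and read out in genes such as PR1 and PCC1. At night leaves live on starch, and the evening complex of the circadian clock (LUX, ELF3 and ELF4) represses its target genes.

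Depth ranged over 17466905 to 20806511 reads for the jaz4-1 libraries and over 18224738 to 21819281 for those of Col-0. Genes with at least 1 read numbered 20952 to 21502 per jaz4-1 library and 20624 to 21461 per Col-0 library. Values are given as normalised reads, which are reads scaled by 1 size factor for each library. The difference between lines is the log2 fold change of jaz4-1 over Col-0, from limma on log2(normalised reads + 1) with its standard error (SE), which understates the change of genes with few reads. A gene was called when its Benjamini-Hochberg adjusted p was under 0.05 over all 19614 genes tested. The rosette leaf markers were abundant in every library. Their 19 genes summed to 1389230 to 1990740 normalised reads per jaz4-1 library and to 1283320 to 2122700 per Col-0 library. Of the floral organ markers AP1 was at 0 in all 6 libraries and the 8 genes summed to at most 49.1 normalised reads in a library. The 5 root markers summed to 1147 to 3391 per jaz4-1 library and to 1151 to 3464 per Col-0 library, nearly all from PYK10, while IRT1 and ALMT1 had at most 3.74 normalised reads in a library.

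JAZ4 (AT1G48500) was barely expressed at ZT18 in either line. It had 2, 3 and 1 reads in the jaz4-1 libraries, against 7, 17 and 4 reads in the Col-0 libraries. All jaz4-1 libraries lay below all Col-0 libraries, with an exact permutation p of 0.1 (2-sided), the smallest that 3 against 3 libraries allow. Scaled for depth, Col-0 had 4.29 times the reads of jaz4-1, with a 95% counting interval of 1.74 to 12.7 that covers counting error only. By limma the log2 difference of JAZ4 was -1.55 ± 0.99, which missed the threshold (adjusted p 1). Among the 100 annotated genes on each side of JAZ4 96 were tested and limma called 0, with 1 at an unadjusted p under 0.05. edgeR, DESeq2 and limma-voom also called 0 there. Of all genes tested 0.138% were called by limma and 3.03% had an unadjusted p under 0.05. At those shares hardly any call falls in 96 genes.

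At ZT18 27 genes were called, 0.138% of those tested. Of these 22 were higher in jaz4-1 (0.112% of genes tested) and 5 were lower (0.0255%). At an unadjusted p under 0.05 there were 595 genes (3.03%), of which 322 were higher (1.64%) and 273 lower (1.39%). The median difference of all genes tested was 0.00, and 90% of genes lay between -0.52 and 0.53. In all 27 called genes the libraries of the lines did not overlap, which held for 10.2% of all genes tested. jaz4-1 replicate 3 was the highest of its line in 17 of the 22 genes that rose, and in 30.4% of all genes tested. Without that library 15 genes were called. edgeR called 25 genes (0.127%), DESeq2 55 (0.292%) and limma-voom 19 (0.0969%), all of the first and of the last being among the 27. The authors' deposited table calls 71 genes at ZT18 (0.377%), among them all 27.

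**Figure D1:**
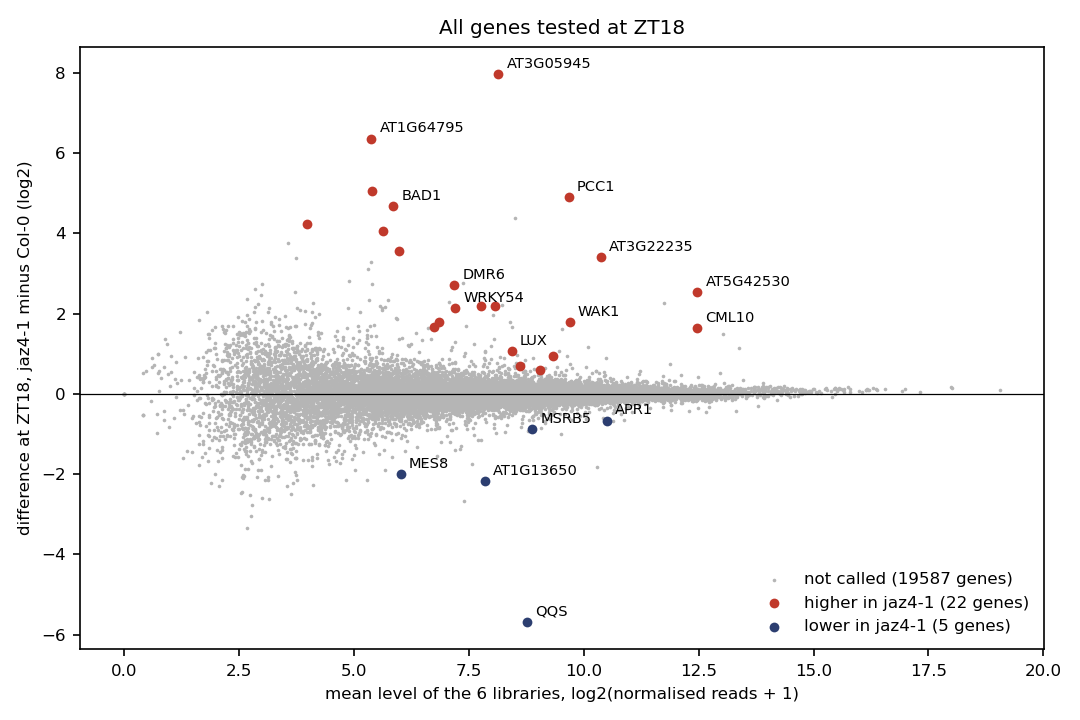
Each point is 1 of the genes tested at ZT18, with its mean level over the 6 libraries on the x axis (log2) and the difference jaz4-1 minus Col-0 on the y axis (log2). The 22 genes called higher and the 5 called lower are coloured, and most of the named ones stand far outside the range of genes of the same level, while MSRB5 and APR1 lie close to its edge.

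Of the 22 genes that rose, PCC1, DMR6, WRKY54 and NPR4 belong to the salicylate lists. The largest difference among them was that of PCC1 (AT3G22231), a small cysteine-rich membrane protein gene known to respond to pathogens, salicylate and the clock. The nearby gene AT3G22235, annotated as a stress tolerance protein with a cysteine-rich membrane module, rose as well. Genes annotated between these 2 had no values. PCC1 had 1402, 1229 and 2101 normalised reads in jaz4-1 and 73.2, 35.5 and 49.1 in Col-0. AT3G22235 had 2273, 2015 and 3002 normalised reads in jaz4-1 and 264, 211 and 201 in Col-0. In both genes every jaz4-1 library was several times above the highest Col-0 library, and jaz4-1 replicate 3 was the highest. PCC1 rose by 4.90 ± 0.64 (SE, adjusted p 0.00103) and AT3G22235 by 3.41 ± 0.47 (adjusted p 0.00124). PCC1 lost its call with limma-voom (adjusted p 0.0908).

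The 250 bases before the annotated starts of both genes are shown because the 2 genes moved together. They lie on chromosome 3 with 7585 bases between them, and the sequences come from the RefSeq assembly TAIR10.1, whereas the submitters' processing notes name TAIR10. Capitals mark matches on either strand to any of 4 short motifs: TGACG, the core bound by TGA factors; TTGAC, the core bound by WRKY factors; CACGTG, the G-box; and AAAATATCT, the evening element. The PCC1 window is chr3:7846834-7847083, minus strand, and the AT3G22235 window is chr3:7855815-7856064, minus strand. Both read 5′ to 3′ along their gene.
PCC1: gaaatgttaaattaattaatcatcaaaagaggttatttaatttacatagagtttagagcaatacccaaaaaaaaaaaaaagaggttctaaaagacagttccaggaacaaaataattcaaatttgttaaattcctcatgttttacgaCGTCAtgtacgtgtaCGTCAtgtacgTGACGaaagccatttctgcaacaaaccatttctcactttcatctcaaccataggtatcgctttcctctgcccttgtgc
AT3G22235: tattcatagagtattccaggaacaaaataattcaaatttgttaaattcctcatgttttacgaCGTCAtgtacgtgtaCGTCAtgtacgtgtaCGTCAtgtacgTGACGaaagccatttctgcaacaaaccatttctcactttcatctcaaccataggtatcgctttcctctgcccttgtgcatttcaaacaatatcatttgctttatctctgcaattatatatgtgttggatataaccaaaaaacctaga
The windows share an identical run of 105 bases, which ends at base 1 before the PCC1 start and at base 70 before the AT3G22235 start. PCC1 had 3 TGACG matches, beginning 104, 89 and 78 bases before its start, and AT3G22235 had 4, beginning 188, 173, 158 and 147 bases before its start. No match to the other 3 motifs was found in these windows. The annotated genes share an identical run of 202 bases, so reads from it could have been counted for either gene, and how far this moved the 2 values was not tested.

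Over all windows of this length, TGACG was found in 9 of the 22 genes that rose (40.9%), in 2 of the 5 that fell and in 19.1% of 19491 tested nuclear genes. PCC1 and AT3G22235 count separately among the 9, although their shared run of 105 bases holds all the PCC1 matches and all but 1 of those of AT3G22235. TTGAC was also found in 9 of the 22 (40.9%), against 44.6% of tested genes, and in 2 of the 5 that fell. CACGTG was found in 2 of the 22 genes (9.09%), against 7.33% of tested genes, and AAAATATCT in 1 of the 22 (4.55%), against 2.5%. Besides the PCC1 pair, more than 1 TGACG match lay before AT1G19960 (3 matches, and 2 of TTGAC), which belongs to no list. The same held for LLP (chr5:816671-816920, minus strand) and NPR4 (chr4:10698812-10699061, minus strand). The windows of LLP and NPR4 are shown because they held these matches and both genes belong to salicylate responses described next. DMR6 and WRKY54, salicylate genes also described next, had no match to any of the motifs in their windows.
LLP: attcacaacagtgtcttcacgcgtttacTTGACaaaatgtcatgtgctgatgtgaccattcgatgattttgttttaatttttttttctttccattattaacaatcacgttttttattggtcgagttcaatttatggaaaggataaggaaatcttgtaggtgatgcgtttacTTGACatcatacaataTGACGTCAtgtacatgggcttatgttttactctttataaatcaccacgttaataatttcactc
NPR4: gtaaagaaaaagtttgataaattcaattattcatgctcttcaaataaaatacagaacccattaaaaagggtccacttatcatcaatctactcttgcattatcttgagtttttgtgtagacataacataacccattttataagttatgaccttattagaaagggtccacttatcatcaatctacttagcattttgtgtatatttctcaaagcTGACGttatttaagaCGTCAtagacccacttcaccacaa
In LLP the 2 TGACG matches, which begin 63 and 60 bases before the start, overlap each other, and 2 TTGAC matches begin 222 and 79 bases before it. In NPR4 the 2 matches begin 39 and 24 bases before the start. A match describes the letters of the window only.

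DMR6 (AT5G24530), the enzyme that hydroxylates and so inactivates salicylate, had 206, 220 and 325 normalised reads in jaz4-1 and 25, 42.1 and 47.2 in Col-0. The lines were clearly apart, and DMR6 rose by 2.70 ± 0.41 (adjusted p 0.00221). WRKY54 (AT2G40750), a transcription factor that acts with WRKY70 in salicylate defence and senescence, had 193, 198 and 329 normalised reads in jaz4-1 and 55.9, 62.7 and 40.5 in Col-0. It rose by 2.14 ± 0.36 (adjusted p 0.00614), and the call was lost without replicate 3 of either line.

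NPR4 (AT4G19660), a salicylate receptor that represses defence genes when the hormone is low, had 517, 462 and 464 normalised reads in jaz4-1 and 322, 277 and 292 in Col-0. Its rise of 0.70 ± 0.12 was small but even across libraries (adjusted p 0.0121), and the call was lost without jaz4-1 replicate 1 or 3 or Col-0 replicate 2 or 3. With only the 6 ZT18 libraries fitted NPR4 was not called (limma adjusted p 0.11). LLP (AT5G03350), a lectin-like protein gene known to be induced by salicylate, had 127, 180 and 183 normalised reads in jaz4-1 and 53.0, 50.5 and 46.2 in Col-0. It rose by 1.67 ± 0.25 (adjusted p 0.00158), with no overlap between lines. The LLP gene overlaps AT5G03345, which differed by -0.17. DMR6 and LLP were not called with limma-voom (adjusted p 0.134 and 0.526).

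**Figure D2:**
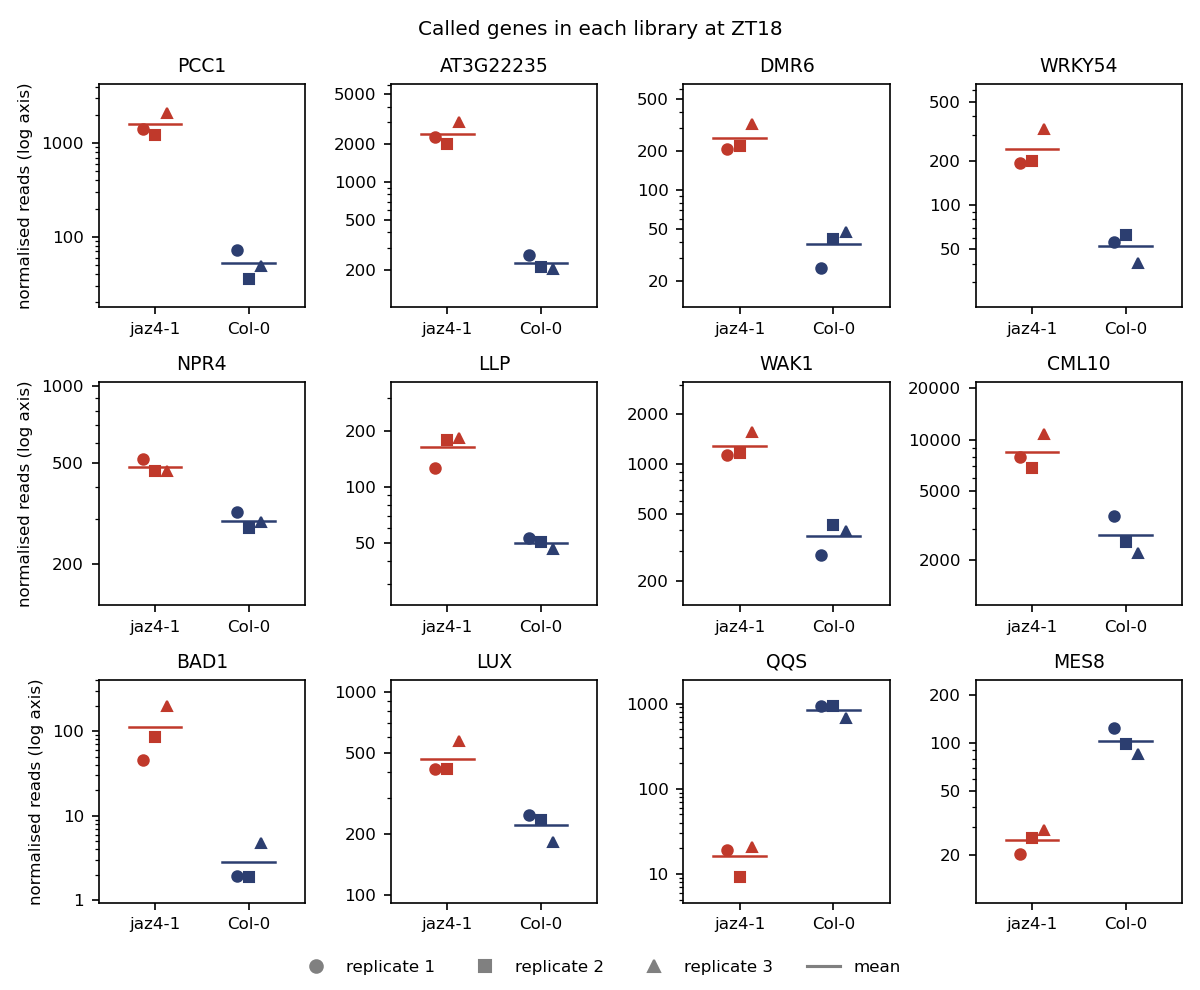
Normalised reads of 12 called genes in each ZT18 library, on log axes that differ between panels, with jaz4-1 left and Col-0 right. Symbols mark the replicates and bars the mean of 3. PCC1, with 1229 to 2101 in jaz4-1 and 35.5 to 73.2 in Col-0, and QQS, with 9.18 to 20.7 in jaz4-1 and 673 to 943 in Col-0, show the widest gaps between the nearest libraries of the lines in the 12 panels.

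The other members of the salicylate lists did not pass the test. Of the 5 tested genes of salicylate turnover DMR6 alone was called, with a list median of 0.23. UGT76B1, a glucosyltransferase of the hormone, was next by p at 0.76 ± 1.35, with at most 13.5 normalised reads in a library. Of 15 tested genes of salicylate synthesis and immune regulation, WRKY54 and NPR4 were called higher (0.112% of all genes tested) and 0 lower. Without replicate 3 of either line 0 of the 15 were called. Their median was 0.18, and 5 had an unadjusted p under 0.05 with a higher value in jaz4-1 (1.64% of all genes tested). WRKY70 had 321, 375 and 432 normalised reads in jaz4-1 and 170, 155 and 117 in Col-0, without overlap, but its difference of 1.36 ± 0.31 missed the threshold (adjusted p 0.174). SARD1, a factor that switches on salicylate synthesis, differed by 1.29 ± 0.39 (adjusted p 0.693). The synthesis gene ICS1 had 195, 162 and 195 normalised reads in jaz4-1 and 116, 199 and 199 in Col-0, and these overlapped. PBS3, which conjugates isochorismate in the same route, lay the other way at -1.15 ± 0.59 (adjusted p 1).

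Among 9 salicylate markers only PCC1 was called, although the list median was 1.45 and 5 members did not overlap between the lines in the higher direction (5.03% of all genes). LURP1 (AT2G14560), needed for resistance to downy mildew, had 610, 482 and 975 normalised reads in jaz4-1 and 30.8, 31.8 and 28.9 in Col-0. The lines were far apart, but the difference of 4.39 ± 0.93 missed the threshold (adjusted p 0.112). ACD6 (AT4G14400), an ankyrin-repeat membrane protein that promotes salicylate-dependent defence, had 4963, 4463 and 7586 normalised reads in jaz4-1 and 1688, 1053 and 837 in Col-0 (difference 2.27 ± 0.47, adjusted p 0.0789). LURP1 and ACD6 were called by DESeq2 and when only the 6 ZT18 libraries were fitted, as was WRKY70. PR1 was uneven within Col-0, with 8.66, 41.8 and 8.04 normalised reads in jaz4-1 and 0, 0 and 183 in Col-0. PR2 had 70.2, 101 and 91.9 in jaz4-1 and 8.67, 21.5 and 60.7 in Col-0, and its difference of 1.88 ± 0.81 was not called (adjusted p 1).

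Among the other genes that rose were 3 receptor kinase genes and a calcium sensor. WAK1 (AT1G21250), a receptor kinase that binds pectin of the cell wall, had 1134, 1163 and 1549 normalised reads in jaz4-1 and 285, 433 and 394 in Col-0. It rose by 1.79 ± 0.34 (adjusted p 0.0299), but the call was lost without any one of the 6 libraries. WAK2, which lies 2635 bases from WAK1 on chromosome 1, differed by 0.66 ± 0.18 (adjusted p 0.37), and WAK3 and WAK4 by -0.03 and -0.36, for a median of 0.32 over the 4. Whether reads were shared between these paralogs was not tested. RLK1 (AT5G60900), a G-type lectin receptor kinase, had 156, 132 and 250 normalised reads in jaz4-1, against 55.9, 49.6 and 43.4 in Col-0. It rose by 1.79 ± 0.34 (adjusted p 0.0206), and leaving out any of the 6 libraries but jaz4-1 replicate 2 ended the call. A further G-type lectin kinase gene, AT1G11330, had 802, 797 and 957 in jaz4-1 and 465, 404 and 456 in Col-0. It rose by 0.94 ± 0.16 (adjusted p 0.00485), a call lost without jaz4-1 replicate 3 or Col-0 replicate 2.

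CML10 (AT2G41090), a calmodulin-like calcium sensor, was one of the most abundant genes called. It had 7996, 6817 and 10844 normalised reads in jaz4-1 and 3597, 2544 and 2174 in Col-0, and rose by 1.63 ± 0.30 (adjusted p 0.0193). AT5G42530, which encodes a protein of unknown function, was of like abundance. It had 8810, 7759 and 12532 normalised reads in jaz4-1 and 1940, 1713 and 1323 in Col-0, a rise of 2.53 ± 0.43 (adjusted p 0.0116). In both genes jaz4-1 replicate 3 was highest and the lines did not overlap, and both calls were lost without jaz4-1 replicate 1 or 3 or Col-0 replicate 2 or 3.

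BAD1 (AT5G54610), the ankyrin-repeat gene also called BDA1, is known from immunity downstream of a receptor-like protein, and it varied widely within jaz4-1. It had 46.2, 84.7 and 201 normalised reads in jaz4-1 and 1.93, 1.87 and 4.82 in Col-0, and rose by 4.68 ± 0.59 (adjusted p 0.000306). It overlaps the ribosomal protein gene RPL24, which differed by 0.05 (adjusted p 1). Whether counting used strand is not stated, so reads of overlapping genes cannot be told apart. LLP, LUX, CML10, APR1 and AT3G29644 also overlap another annotated gene. With limma-voom BAD1 was not called (adjusted p 1). SCPL16, a serine carboxypeptidase-like gene, had 82 reads over the jaz4-1 libraries, against 3 over those of Col-0, a ratio of 29.8 after scaling (95% counting interval 9.83 to 147). It rose by 4.23 ± 0.80 (adjusted p 0.0219), a call lost with edgeR and limma-voom and without any one ZT18 library other than Col-0 replicate 2. It overlaps AT3G12210. AT1G19960, of unknown function, had 318, 300 and 441 normalised reads in jaz4-1 and 106, 55.2 and 72.3 in Col-0, and its mean rose 4.54-fold (adjusted p 0.00124, and 0.133 with limma-voom). AT2G32160 had 380, 313 and 632 in jaz4-1 and 115, 92.6 and 73.2 in Col-0, and rose by 2.19 ± 0.42 (adjusted p 0.0323, but 0.0605 with edgeR and 0.25 with limma-voom). The smallest rise called was that of AT3G04480, annotated as an endoribonuclease, by 0.60 ± 0.11 (adjusted p 0.00965). That gene had 597, 596 and 732 in jaz4-1 and 412, 436 and 411 in Col-0, and its call was lost without jaz4-1 replicate 3 or Col-0 replicate 1 or 3, while that of AT2G32160 was lost without any one of the 6 libraries.

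Of 23 circadian clock genes tested, LUX (AT3G46640) was the single one called, against 0.138% of all genes tested. LUX encodes the DNA-binding subunit of the evening complex. It had 417, 414 and 571 normalised reads in jaz4-1 and 247, 233 and 182 in Col-0, so the lowest jaz4-1 library was well above the highest Col-0 library. The rise was 1.07 ± 0.16 (adjusted p 0.00113), and it was called without each of the 24 libraries in turn. With only the 6 ZT18 libraries fitted it was not called (adjusted p 0.115). Its partners ELF3 and ELF4 differed by 0.00 ± 0.12 and 0.23 ± 0.43, and BOA, the LUX-related gene, by -0.07 ± 0.40, each with overlapping lines. TOC1, a clock repressor of the evening, had 1135, 1307 and 1387 normalised reads in jaz4-1 and 1058, 1218 and 1129 in Col-0 (0.17 ± 0.13, adjusted p 1). LHY, a morning factor that starts to accumulate before dawn, had 936, 952 and 920 normalised reads in jaz4-1 and 715, 793 and 857 in Col-0. Its lines did not overlap, but the difference of 0.25 ± 0.21 was not called (adjusted p 1), and its partner CCA1 overlapped at 0.43 ± 0.45. The uncalled clock gene with the smallest p was PRR7, a repressor active in the morning and at midday, with few reads and overlapping lines. It had 7.70, 6.12 and 0 normalised reads in jaz4-1 and 5.78, 7.48 and 9.63 in Col-0 (-1.10 ± 0.50, adjusted p 1). The median of the clock list was 0.14.

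The window before LUX (chr3:17182792-17183041, plus strand) is shown because LUX was the 1 clock gene that moved, and among the genes that rose its window alone held the evening element, which is the motif typical of evening-phased genes.
LUX: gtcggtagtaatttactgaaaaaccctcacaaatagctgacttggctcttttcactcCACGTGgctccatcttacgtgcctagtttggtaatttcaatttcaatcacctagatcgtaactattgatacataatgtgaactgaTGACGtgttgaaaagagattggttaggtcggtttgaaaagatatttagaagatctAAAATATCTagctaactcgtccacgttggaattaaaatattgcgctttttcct
From the start of the window, the capitals mark CACGTG (beginning 193 bases before the gene start), TGACG (108 bases) and AAAATATCT (53 bases).

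Other night-related lists were near 0. Of 12 PIF factors and night growth genes 0 were called by limma, edgeR and limma-voom. At an unadjusted p under 0.05 there were 2, against 3.03% of all genes tested. HFR1, a light-signalling antagonist of PIFs, had 12.5, 12.2 and 3.45 normalised reads in jaz4-1 and 52.0, 20.6 and 25.1 in Col-0 (-1.74 ± 0.44, adjusted p 0.265) and was called lower by DESeq2. PIF5 lay at 0.40 ± 0.15 (adjusted p 1), and the list median was -0.05. In the 17 starch breakdown genes the median was 0.08, with differences from -0.10 to 0.42. None of the 4 tools called any of them, and 0 had an unadjusted p under 0.05 (3.03% of all genes tested). The smallest p there were those of the debranching enzyme ISA3 (0.29 ± 0.19) and the glucan phosphatase SEX4 (0.17 ± 0.17).

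The genes that fell were led by QQS, AT1G13650 and MES8. QQS (AT3G30720), an orphan gene of Arabidopsis that influences leaf starch and protein, had 19.2, 9.18 and 20.7 normalised reads in jaz4-1 and 934, 943 and 673 in Col-0. It fell by 5.67 on the log2 scale (SE 0.72, adjusted p 0.000459), the largest decrease called. MES8 (AT2G23590), of the methylesterase family that releases hormones from their methyl esters, had 20.2, 25.5 and 28.7 normalised reads in jaz4-1 and 123, 99.1 and 85.7 in Col-0. It fell by 2.00 (SE 0.29, adjusted p 0.00124), while the other 9 methylesterase genes tested were not called and lay between -1.23 and 1.00 (list median -0.09). MES6 had the smallest p of these, with 26, 21.4 and 34.5 in jaz4-1 and 8.67, 12.2 and 20.2 in Col-0, without overlap (1.00 ± 0.50, adjusted p 1). AT1G13650 had 87.6, 66.3 and 91.9 normalised reads in jaz4-1 and 473, 344 and 312 in Col-0, and fell by 2.18 (SE 0.23, adjusted p 1.72e-05).

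Another 5 loci, of which little is described, had few or no reads in Col-0. AT3G05945, annotated as a long noncoding RNA, had 678, 496 and 507 normalised reads in jaz4-1 and 2.89, 1.87 and 0 in Col-0 (7.96 ± 0.47, adjusted p 6.97e-10). AT3G29644, a second noncoding RNA gene on chromosome 3 with 8665 bases between it and AT3G05945, had 104, 123 and 116 in jaz4-1 and 6.74, 13.1 and 7.71 in Col-0 (3.55 ± 0.43, adjusted p 0.000106). AT1G64795 had 81.8, 79.6 and 81.6 normalised reads in jaz4-1 and 0 in each Col-0 library. With Col-0 set at 3 reads over the group jaz4-1 was 84.9-fold higher, and the 95% counting interval of the ratio began at 68.5. The adjusted p of AT1G64795 was 2.87e-08, and the gene overlaps ILA, which differed by 0.05. AT5G15420 (80.8, 75.5 and 83.9 in jaz4-1, 2.89, 2.81 and 0 in Col-0) rose by 5.04 ± 0.61 (adjusted p 0.000106, and 0.0535 with limma-voom). AT1G75945 (97.2, 86.7 and 90.8 in jaz4-1, 11.6, 3.74 and 1.93 in Col-0) rose by 4.05 ± 0.46 (adjusted p 5.66e-05). In each of the 5 loci every jaz4-1 library was several times above the highest Col-0 library.

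In the sulfur list 1 gene fell, and lower values stood in many others. APR1 (AT4G04610), the reductase that controls flux through sulfate assimilation, had 1141, 1195 and 1013 normalised reads in jaz4-1 and 1723, 1570 and 2031 in Col-0. It fell by 0.66 (SE 0.13, adjusted p 0.0417), and the call was lost without any one of the 6 libraries. Of 23 genes tested in the list, 17 had a difference below 0, and the median was -0.37. In 11 of the 23 the jaz4-1 libraries all lay below the Col-0 libraries (5.13% of all genes tested), and 8 had an unadjusted p under 0.05 and a lower value in jaz4-1 (1.39% of all genes). Without Col-0 replicate 1, which was the highest Col-0 library in SDI1, SDI2, LSU1, LSU2 and SHM7 among others, those 8 became 4 and the median was -0.25. Without jaz4-1 replicate 3, the lowest of its line in SDI1 and LSU1, they became 5.

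Differences varied among the members. SDI1, a repressor of glucosinolate synthesis that is induced by sulfur deficiency, had 60.6, 64.3 and 31 normalised reads in jaz4-1 and 303, 69.2 and 189 in Col-0 (-1.66 ± 0.59, adjusted p 1). LSU1, a low-sulfur-induced gene, had 31.7, 47.9 and 11.5 in jaz4-1 and 96.3, 64.5 and 80.0 in Col-0 (-1.56 ± 0.54, adjusted p 1). SULTR4;2, which exports sulfate from the vacuole, had 388, 371 and 362 in jaz4-1 and 649, 526 and 502 in Col-0 (-0.57 ± 0.16, adjusted p 0.5). Sulfite reductase SIR and GSH1 of glutathione synthesis differed by -0.03 ± 0.16 and 0.02 ± 0.10. None of these 5 genes was called, and the lines did not overlap in SDI1, LSU1 and SULTR4;2.

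**Figure D3:**
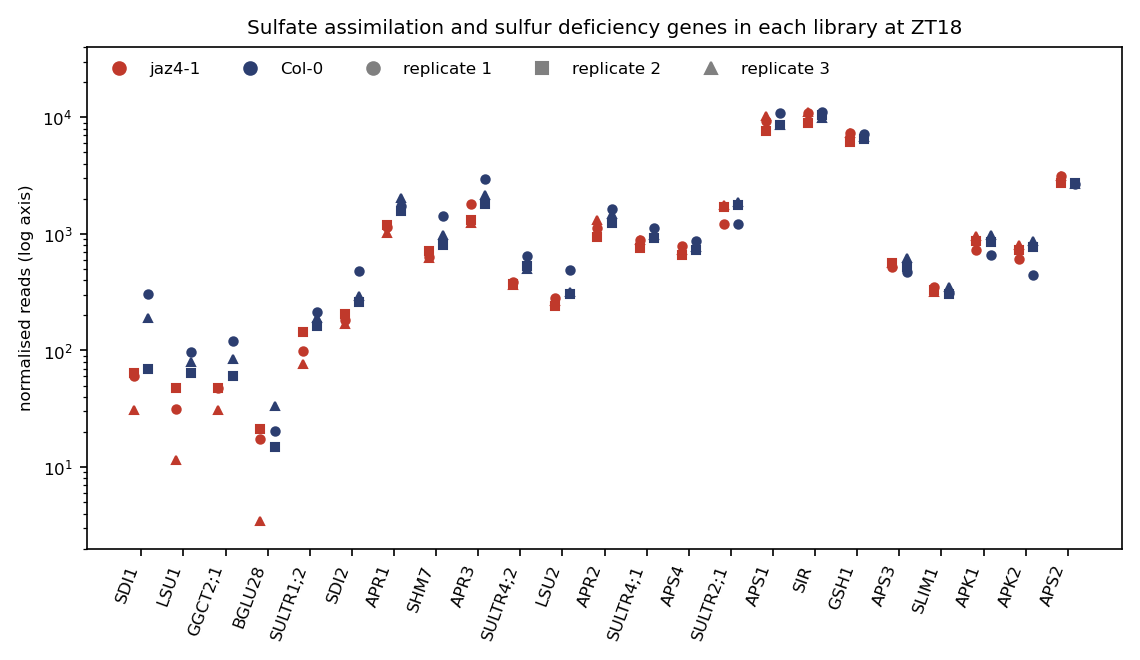
Normalised reads (log axis) of the 23 tested sulfur genes in each ZT18 library, jaz4-1 left and Col-0 right of each position, ordered from the lowest to the highest log2 difference. Toward the left, from SDI1 to SULTR4;2, the jaz4-1 symbols lie below the Col-0 symbols in 9 of the 10 genes, BGLU28 being the exception, and APR1 is the 1 gene called.

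MSRB5 (AT4G04830), which repairs oxidised methionine, had 310, 338 and 338 normalised reads in jaz4-1 and 591, 595 and 630 in Col-0. The spread within each line was small, and MSRB5 fell by 0.88 (SE 0.16, adjusted p 0.0186), but the call was lost without any one of the 6 libraries. The other 11 methionine sulfoxide reductase genes tested were not called, and the median of the list was -0.05. MSRB2, the plastid enzyme, lay at 0.24 ± 0.14.

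The jasmonate lists showed 0 called genes by limma, edgeR, DESeq2 and limma-voom, and 0 with an unadjusted p under 0.05. Of all genes tested limma called 0.138%, and 3.03% had an unadjusted p under 0.05, so 0 in lists of this size is near those shares. The medians were -0.13 for 11 JAZ repressors, 0.02 for 14 synthesis genes, -0.32 for 7 catabolism genes and -0.03 for 13 signalling and response genes. JAZ1 had 56.8, 52.0 and 100 normalised reads in jaz4-1 and 80.9, 115 and 116 in Col-0 (-0.61 ± 0.79, adjusted p 1). The lipoxygenase gene LOX4 had 62.5, 60.2 and 82.7 in jaz4-1 and 110, 198 and 91.5 in Col-0, without overlap (-0.88 ± 0.60, adjusted p 1). MYC4, a transcription factor that JAZ proteins repress, had 434, 565 and 530 in jaz4-1 and 547, 544 and 589 in Col-0 (-0.14 ± 0.14). The other members with the smallest p of their list were AOC4 of synthesis (-0.27 ± 0.22), CYP94C1 (1.51 ± 0.95) and CYP94B1 (-1.11 ± 1.02) of catabolism, and JAM2, a repressor of jasmonate responses (-0.23 ± 0.19). The catabolism median was 0.12 without Col-0 replicate 3, the library in which JRG21, the JOX3 hydroxylase gene, had 630 normalised reads against at most 23 elsewhere at ZT18. It was -0.58 without jaz4-1 replicate 3. MYC2 of the signalling list and JOX1, JOX2 and JOX4 of the catabolism list were among the entries without a match, so they were not analysed here.

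**Figure D4:**
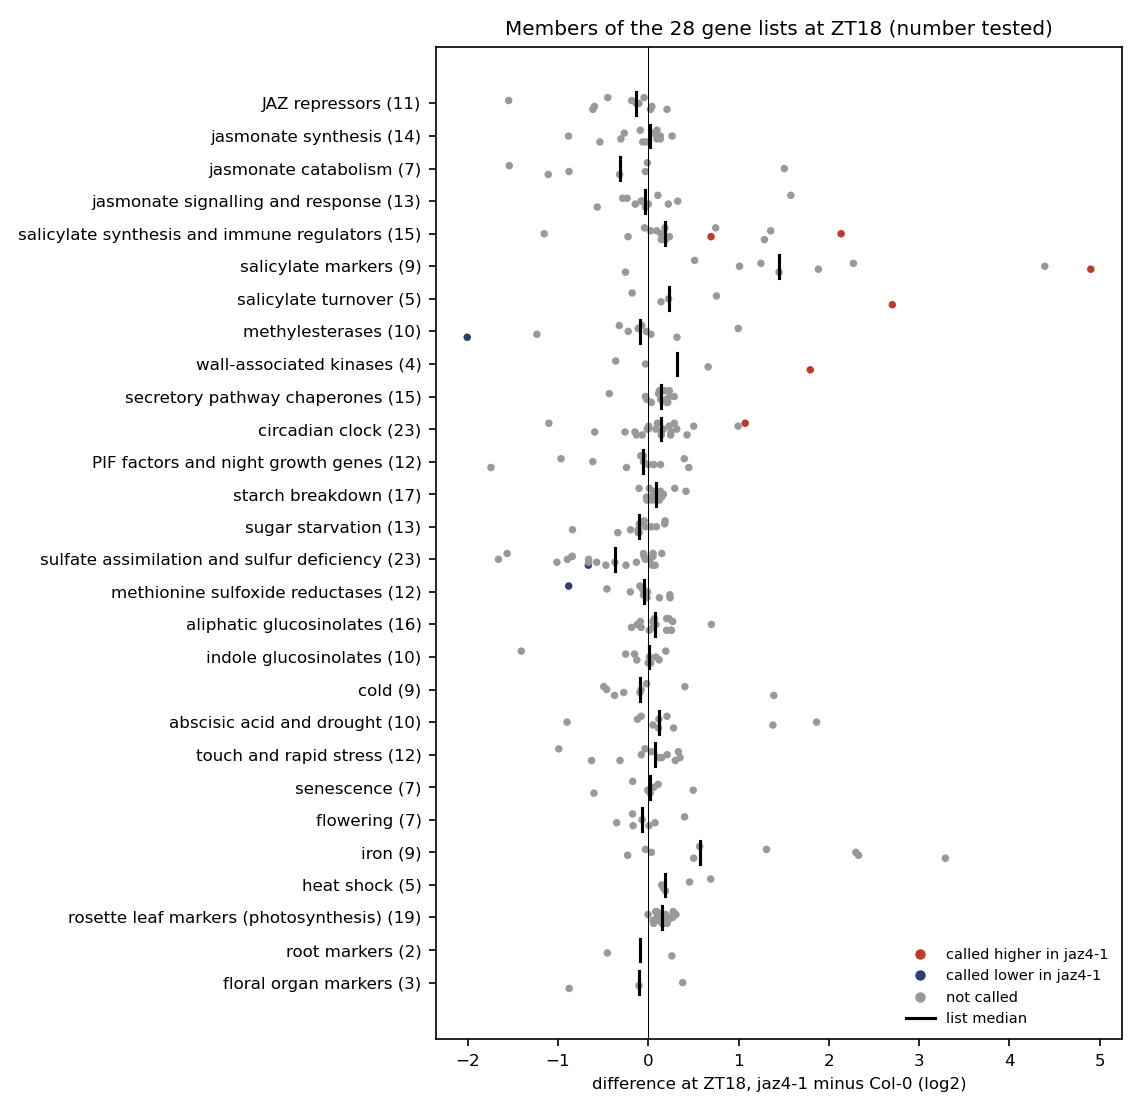
Each point is 1 tested member of 1 of the 28 gene lists, placed by its difference at ZT18, jaz4-1 minus Col-0 (log2), with the number tested in brackets and the list median as a bar. Salicylate markers have the highest median (1.45) and the sulfur list the lowest (-0.37), and called genes are coloured.

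Lists of other processes held 0 called genes by any of the 4 tools. The medians were 0.14 for 15 secretory pathway chaperones, -0.10 for 13 sugar starvation genes, 0.08 for 16 aliphatic glucosinolate genes and 0.01 for 10 indole glucosinolate genes. They were -0.09 for 9 cold genes, 0.12 for 10 abscisic acid and drought genes, 0.07 for 12 touch and rapid stress genes and 0.02 for 7 senescence genes. They were -0.07 for 7 flowering genes, 0.57 for 9 iron genes, 0.19 for 5 heat shock genes, 0.15 for 19 rosette leaf markers, -0.10 for 2 root markers and -0.10 for 3 floral organ markers. At an unadjusted p under 0.05 (3.03% of all genes tested) these lists held 2 genes, IGMT1 of the indole glucosinolates at -1.41 ± 0.55 and HSP90.1 at 0.69 ± 0.23. The cold list median was 0.18 without Col-0 replicate 1 and 0.099 without jaz4-1 replicate 2. The smallest p of the metabolic lists belonged to BZIP63 (-0.20 ± 0.15) and DIN10 (0.19 ± 0.29) of sugar starvation, MYB76 (0.70 ± 0.44) and FMOGSOX1 (0.26 ± 0.23) of the aliphatic glucosinolates, and, after IGMT1, CYP83B1 (0.19 ± 0.16). In the stress lists they belonged to CRT3 (0.22 ± 0.12) and BIP1 (0.20 ± 0.16) of the chaperones, COR47 (-0.49 ± 0.27) and KIN2 (-0.27 ± 0.25) of cold, HAI2 (1.86 ± 1.16) and PP2CA (0.28 ± 0.19) of abscisic acid, and ZAT12 (-0.99 ± 0.86) and TCH2 (0.30 ± 0.28) of touch. In the remaining lists they belonged to NYE1 (-0.17 ± 0.19) and SAG21 (0.50 ± 1.07) of senescence, CO (0.40 ± 0.64) and TEM1 (-0.17 ± 0.30) of flowering, and, after HSP90.1, HSP101 (0.15 ± 0.18). Among the markers they belonged to LHCB3 (0.28 ± 0.17) and LHCB2.2 (0.31 ± 0.20) of the leaf, PYK10 (-0.45 ± 0.50) and NRT2.1 (0.26 ± 0.96) of the root, and PI (-0.88 ± 0.87) and SEP3 (0.38 ± 0.72) of the flower. Of these members, picked by p, the lines did not overlap in CRT3, COR47, NYE1, SAG21, CO and LHCB3. No overlap was found in 10.2% of all genes tested. The iron regulator BTS had 2754, 2726 and 2738 normalised reads in jaz4-1 and 2571, 1686 and 1665 in Col-0 (0.50 ± 0.28, adjusted p 1). In the iron list BHLH38, which activates iron uptake, had 54.8, 84.7 and 57.4 normalised reads in jaz4-1 and 38.5, 6.55 and 0 in Col-0 (3.29 ± 1.73, adjusted p 1). BHLH39 had 56.8, 111 and 74.7 in jaz4-1 and 57.8, 6.55 and 7.71 in Col-0, so Col-0 replicate 1 stood with the jaz4-1 libraries for that gene.

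The genes just outside the threshold were AT1G35710, a leucine-rich repeat kinase (1.62 ± 0.33, adjusted p 0.0514), HO3 (3.11 ± 0.64, adjusted p 0.0538), AT2G06355 (3.76 ± 0.78, adjusted p 0.0552) and AT5G53150 (-0.72 ± 0.15, adjusted p 0.0552), followed by ACD6 and AT3G53830 (adjusted p 0.0815). HO3, a plastid heme oxygenase gene, had 57.7, 41.8 and 108 normalised reads in jaz4-1 and 2.89, 9.35 and 9.63 in Col-0. Just inside were AT2G32160 (adjusted p 0.0323) and APR1. Uncalled genes with no overlap between lines included PCR1 (2.77 ± 0.75, adjusted p 0.43) and the receptor-like protein gene AtRLP38 (2.74 ± 0.72, 0.34) on the higher side. On the lower side they included the pectinesterase gene PME16 (-2.14 ± 0.52, 0.22) and PGLP1A (-1.82 ± 0.90, 1).

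Most of the genes called at ZT18 were called at dawn as well. Of the 27, 24 were called in the same direction at ZT0, 16 at ZT6 and 8 at ZT12, where 0.923%, 2.95% and 0.321% of genes were called. The 7 genes called at all 4 times were QQS, MES8, AT3G05945, AT3G29644, AT1G64795, AT1G75945 and AT5G15420. LUX and MSRB5 were called at ZT18 alone, with LUX differences of 0.20, 0.44 and 0.14 at ZT0, ZT6 and ZT12 (SE 0.16). MSRB5 differed by -0.58, -0.58 and -0.09 at those times (SE 0.16), with limma adjusted p of 0.107 at ZT0 and 0.0563 at ZT6. PCC1 differed by 5.96, 2.53 and 0.05 at those times, DMR6 by 2.39, 2.17 and 0.97, WRKY54 by 2.85, 2.01 and 0.10 and WAK1 by 2.67, 0.62 and 0.06. The noncoding AT3G05945 differed by 6.02, 8.22 and 7.84. The test of the difference itself, ZT18 against the mean of the other times, called 0 genes with limma, edgeR and limma-voom, 610 at an unadjusted p under 0.05 (3.11%) and 13 with DESeq2. LUX differed by 0.81 in that test (adjusted p 0.522). No gene was thus called by limma as particular to ZT18.

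Against single times, tests added after seeing the data gave 0 genes for ZT18 minus ZT0 (578 at an unadjusted p under 0.05, 0 with edgeR and limma-voom, 1 with DESeq2). For ZT18 minus ZT6 they gave 5 genes, all lower (0.0255%), and for ZT18 minus ZT12 they gave 14 (0.0714%), of which 2 were higher (0.0102%) and 12 lower (0.0612%). The 2 were LLP, which differed by 1.67 at ZT18 and -0.73 at ZT12, and AT3G22235, which differed by 3.41 at ZT18 and -0.25 at ZT12. The call of AT3G22235 in that test was lost without any one of the 6 ZT18 libraries. APR1, at -0.66 at ZT18 and 0.53 at ZT12, was among the 12, and the other 11 were not called at ZT18. PCC1 differed by 4.90 at ZT18 and 0.05 at ZT12, and the test of that change missed the threshold (4.86, adjusted p 0.0549).

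**Figure D5:**
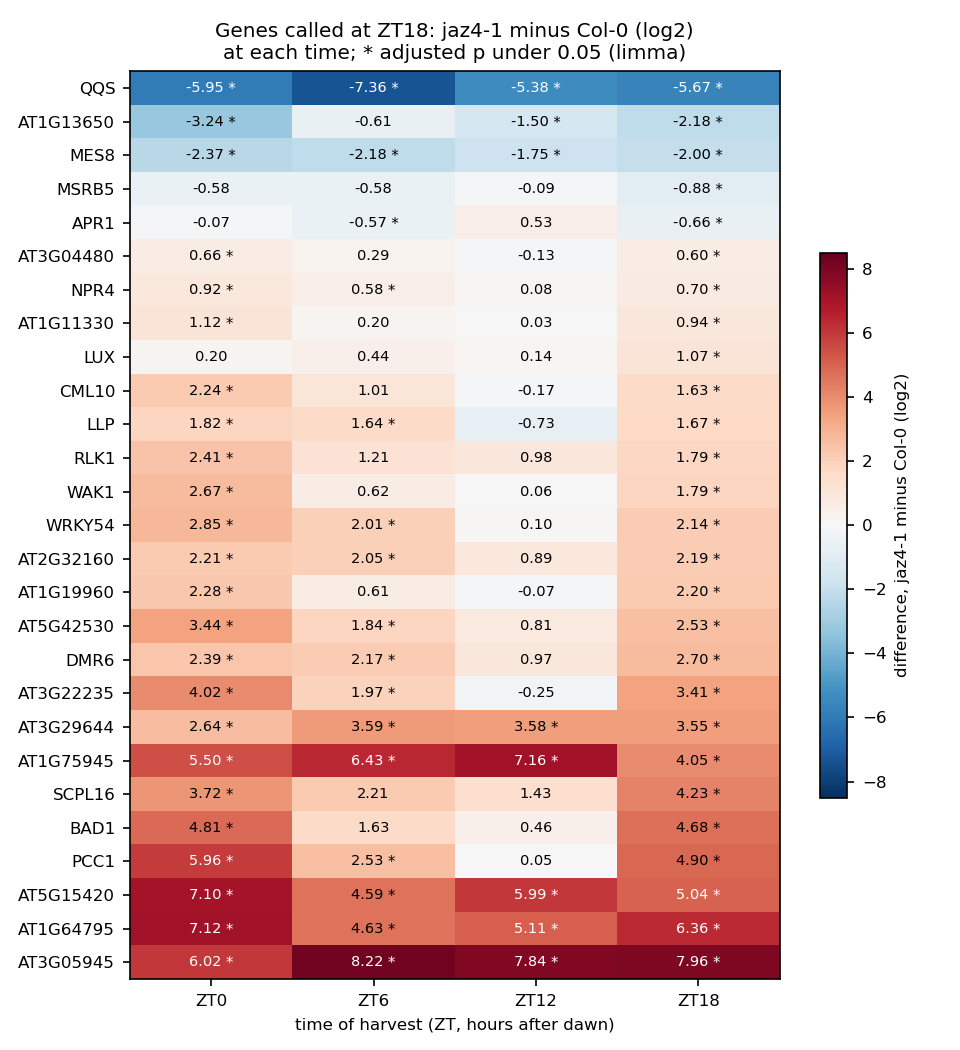
Difference jaz4-1 minus Col-0 (log2) of the 27 genes called at ZT18, in rows ordered by the ZT18 value, at the 4 times of harvest, with an asterisk where the adjusted p was under 0.05. PCC1 reads 5.96, 2.53, 0.05 and 4.90 from ZT0 to ZT18, while QQS stays between -7.36 and -5.38.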

How the data were processed

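RNA-seq of rosettes was made with NEBNext Ultra libraries read at both ends, per the labels' protocols. HISAT2, featureCounts and TAIR10 are named in the submitters' processing notes, with no version or strand setting. The deposited values are headed RPKM, but every value is a whole number of reads (within 0.001 reads) divided by 1 factor per library, so they are treated as a normalised signal, scaled by the authors within each time. The authors' log2 fold changes and adjusted p-values enter only the sentences that name their table.

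Differences were tested with limma 3.58.1 (R 4.3.3; trend and robust empirical Bayes) on log2(value + 1) over 24 libraries with 1 coefficient per line and time, for 19614 genes passing edgeR's filterByExpr. The whole reads of the deposited table went to edgeR 4.0.16, DESeq2 1.42.0 and limma-voom as alternatives. The scripts were tested on simulated data. With 3 libraries a line, precision is limited. The main p-values set a difference against the spread between pools of the same line and time, estimated over all 24 libraries. Genes named by rule are JAZ4, those called, the 2 smallest p in each of 28 lists, the 6 nearest misses and the 5 largest and 5 smallest uncalled differences without overlap; further list members were chosen after their values were seen. Members and lists were chosen with earlier results of these data known. Of 347 list entries 335 matched the table.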

Additional observations from a re-analysis of the deposited data

Results flagged for a closer look

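3 genes called at ZT18 also differed between ZT18 and ZT12 in the size or direction of the difference between lines, by a test added after seeing the data (limma, ZT18 minus ZT12 of jaz4-1 minus Col-0). AT3G22235 differed by 3.67 more at ZT18 (adjusted p 0.0394), with 3.41 at ZT18 and -0.25 at ZT12. That call held in 20 of 35 alternatives and was lost with edgeR, with limma-voom and without 13 of the single libraries, each of the 6 of ZT18 among them. LLP differed by 2.40 (adjusted p 0.00516), and its call held in 34 of 35 alternatives, limma-voom being the exception. APR1 differed by -1.20 (adjusted p 0.00887), with -0.66 at ZT18 and 0.53 at ZT12. Its call held in 33 of 35 and was lost the first replicate of Col-0 at ZT12 or the third of jaz4-1 at ZT18.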

How the results depend on the processing

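The 27 genes called at ZT18 became 55 with DESeq2, and 15 to 34 when 1 library was left out, with the 15 reached without jaz4-1 replicate 3 of ZT18. All other alternatives gave 19 (limma-voom) to 35 (without the 2 libraries with the fewest detected genes). Same-numbered ZT18 libraries deviated together with r of 0.327, 0.141 and -0.0978, and unlike-numbered ones with r from -0.421 to 0.365. At ZT0 same-numbered r was 0.157, 0.13 and 0.228 (unlike-numbered -0.261 to 0.0948). At ZT6 and ZT12 it was 0.0182 to 0.133 (unlike-numbered -0.11 to 0.0548). Each same-numbered r was above every unlike-numbered one at ZT0 and ZT6, but not at ZT12 or ZT18. Whether the replicate numbers pair the samples is thus not settled. With the replicate number as a block 23 genes were called, without WRKY54 (adjusted p 0.0855), AT5G42530 and CML10 (0.145 each), RLK1 (0.0733), SCPL16 (0.0819), WAK1 (0.322) and APR1 (0.0855) of the 27. With only the 6 ZT18 libraries fitted, LUX (limma adjusted p 0.115), NPR4 (0.11), AT3G04480 (0.214), RLK1 (0.0829), SCPL16 (0.173) and APR1 (0.203) of the 27 were not called. The test of ZT18 against the mean of other times gave 0 genes, and 13 with DESeq2, 5 with the block and 0 to 3 without 1 library. Against ZT0 it gave 0, 1 with DESeq2 and 0 to 1 without 1 library. Against ZT6 the 5 became 10 on TMM log2 CPM, 9 with edgeR, 123 with DESeq2, 12 with limma-voom, 19 with the block, 1 without the 2 libraries with the fewest detected genes and 0 to 26 without 1 library. Against ZT12 the 14 became 76 with DESeq2, 8 with limma-voom, 39 with the block and 4 to 51 without 1 library (51 without jaz4-1 replicate 1 of ZT12). The cause was not tested.

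Of 971 values of the called genes over the alternatives, 883 stayed on the same side of the threshold, 88 were no longer past it and 0 changed sign. 15 of the 27 genes were called without each ZT18 library. WAK1, MSRB5, APR1 and AT2G32160 were lost without any one of them, RLK1 and SCPL16 without 5, and CML10, NPR4 and AT5G42530 without 4. Of the 86 genes followed through the alternatives, 3 uncalled ones changed sign without Col-0 replicate 1 of ZT18: without 1 library, the log2 fold change of UGT76B1 ranged from -0.14 to 1.79, that of TEM1 from -0.38 to 0.052 and that of SEP3 from -0.16 to 0.89. For JAZ4 reads at ZT18, the mean of Col-0 over that of jaz4-1, 4.32, became 2.59 to 5.75 without 1 library. With 6 and 28 JAZ4 reads, counting error alone leaves that ratio between 1.74 and 12.7. Without 1 ZT18 library the PIF list median (-0.05) was -0.16 to 0.05 and that of the indole glucosinolates (0.01) -0.17 to 0.06.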
